A study of Mus musculus with 46 samples.

Results

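Of the 46 microRNA (miRNA) arrays of mouse liver, heart and brain, 11 carried RNA with an RNA integrity number (RIN) under 6: 7 of liver, 2 of heart and 2 of brain. They were chosen by the RIN in the sample labels. The study followed the miRNAs of excised organs as the tissue decayed, and the question asked of these 11 arrays was which miRNAs still told the 3 tissues apart and which were measured alike in all of them. All organs came from male C57BL6 mice of an Il1a knock-out strain, so the groups share that background. Each organ was cut into pieces, which were processed after different storage times. Organs of different animals were stored at 4 °C and at room temperature (RT). The degraded liver arrays were pieces kept at RT for 3 h (RIN 4.1), 6 h (2.8), 12 h (2.7), 24 h (2.7), 48 h (2.4) and 96 h (2.3), and 1 piece kept for 48 h at 4 °C (3.4). The heart arrays were pieces kept at RT for 48 h (RIN 4.6) and 96 h (2.2), and the brain arrays were pieces kept at RT for 48 h (5.5) and 96 h (3.3). They were set beside 34 arrays with RIN of 6 or over, 7 of liver, 13 of heart and 14 of brain. These held pieces kept at 4 °C for up to 96 h and at RT for up to 24 h. In comparisons between RIN classes, RIN thus cannot be fully told apart from storage time, temperature, animal and slide. A heart array of 0 h at 4 °C that the study removed was left out.

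The pieces of 1 tissue at 1 temperature were hybridised on a single slide, so that 6 slides held the series, and tissue and slide cannot be told apart for heart and brain. By the study's methods liver, heart and brain were taken from the same individual, so all RT pieces are read here as those of 1 animal. For the RT pieces the p-values below therefore measure only the spread between pieces of the same organ. The pieces of 4 °C, the degraded liver piece of 48 h among them, came from another animal by those methods. The degraded liver arrays came from both liver slides, 6 of them from the RT slide. Degraded arrays had more miRNAs called detected by the scanner software, 415 to 726 in liver, 589 and 683 in heart and 688 and 798 in brain, against 268 to 593 on the arrays with RIN of 6 or over, and no spot was saturated. The liver pieces of 48 h and 96 h at RT stood apart from the other 9 arrays in a complete linkage tree over all tested miRNAs.

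MiRNAs are short RNAs that, bound to Argonaute proteins, repress messenger RNAs paired to their seed, bases 2 to 8 of the mature strand. Some are made almost solely in 1 cell type and serve as signs of it: miR-122 is the dominant miRNA of hepatocytes, miR-1 and miR-133 belong to striated muscle, and miR-124 and miR-9 to neurons and their precursors. Others, such as the let-7 family, are made in most cells.

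The sequences below belong to the miRNAs on which the tissue differences turn. RefSeq (GRCm38.p6) held 680 of the 815 tested miRNAs and 71 of the 92 named in the analysis. The 3 markers miR-122-5p, miR-1a-3p and miR-124-3p are given by name. Each strand is written 5′ to 3′ with the seed in capitals. The first 4 are liver miRNAs, shown because they were highest on degraded liver arrays.
miR-192-5p: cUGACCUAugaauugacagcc
miR-194-5p: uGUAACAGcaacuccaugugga
miR-148a-3p: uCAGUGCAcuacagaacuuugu
miR-802-5p: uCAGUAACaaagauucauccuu
miR-192-5p lies at chr19:6264857-6264877 on the plus strand, and 1 of the miR-194 copies lies beside it at chr19:6264658-6264679. The other copy, at chr1:185313325-185313346, lies within the span of Iars2.

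The heart strands are shown because 3 of them come from myosin genes, and because miR-208a and miR-208b share a seed.
miR-133b-3p: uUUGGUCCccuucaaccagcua
miR-208a-3p: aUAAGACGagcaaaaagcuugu
miR-208b-3p: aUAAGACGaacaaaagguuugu
miR-499-5p: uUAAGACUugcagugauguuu
The table of gene spans placed miR-208a-3p (chr14:54949072-54949093, minus strand) within Myh6, miR-208b-3p (chr14:54975710-54975731, minus strand) within Myh7 and miR-499-5p (chr2:155622893-155622913, plus strand) within Myh7b. It gives spans only, so whether a miRNA is exonic or intronic was not analysed here.

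The brain strands include 3 from the long miRNA cluster of chromosome 12, which is imprinted and active in brain.
miR-9-5p: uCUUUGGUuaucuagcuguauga
miR-9-3p: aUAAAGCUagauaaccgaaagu
miR-128-3p: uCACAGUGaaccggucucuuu
miR-127-3p: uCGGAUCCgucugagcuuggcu
miR-434-3p: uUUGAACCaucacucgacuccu
miR-410-3p: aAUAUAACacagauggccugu
Of these, miR-127-3p (chr12:109592888-109592909) and miR-434-3p (chr12:109594565-109594586) lie within the span of Rtl1, and miR-410-3p (chr12:109743764-109743784) lies within that of Mirg, all on the plus strand. MiR-128-3p has copies within R3hdm1 (chr1:128202404-128202424, plus strand) and Arpp21 (chr9:112118644-112118664, minus strand).

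The next 3 strands stand for what the tissues shared or gained: a broadly expressed miRNA, the miRNA measured most alike in the 3 tissues, and a late-numbered miRNA higher in degraded liver.
let-7a-5p: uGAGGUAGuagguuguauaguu
miR-191-3p: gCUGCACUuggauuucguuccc
miR-8093: uUGGGGAGcagagcaugagug

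The tissue markers kept their tissue on all 11 degraded arrays. Values are the deposited normalized log2 signals, in which a difference of 1 is about 2-fold for bright miRNAs and understates the change of dim ones. On the liver arrays miR-122-5p ranged from 11.19 at 96 h at RT to 15.47 at 3 h at RT, with a median of 14.77. The heart arrays measured 6.35 and 4.75 and the brain arrays 1.97 and 2.71. The lowest liver array thus lay above every heart and brain array, and liver exceeded the mean of heart and brain by 9.86 ± 0.94 (SE; limma, adjusted p = 2.97e-05). Among the liver pieces kept at RT the marker stood at 14.77 after 12 h and 13.13 after 24 h, between these extremes, and the piece of 48 h at 4 °C measured 15.34.

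For miR-1a-3p the heart arrays measured 14.66 and 13.64. Brain measured 5.72 and 5.03, and the liver arrays ranged from -2.44 to 3.55 with a median of 1.11. Heart exceeded brain by 8.77 ± 1.85 (SE; limma, adjusted p = 0.00575), with no overlap between the 3 tissues. For miR-124-3p the brain arrays measured 13.38 and 12.97 against 2.17 and 1.59 in heart, and liver ranged from -3.19 to 4.61 with a median of 0.90. Brain exceeded heart by 11.29 (heart minus brain -11.29 ± 1.89, SE; limma, adjusted p = 0.00113). The plot of the 3 markers sets these values beside the arrays of better RNA: the 48 h pieces of heart and brain lay within the range of their own tissue with RIN of 6 or over (14.13 to 14.93 for miR-1a-3p in heart, 13.11 to 13.86 for miR-124-3p in brain) and the 96 h pieces just below it, while miR-122-5p lay below its liver range (12.67 to 15.47) on the liver pieces of 48 h and 96 h at RT.

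**Figure D1:**
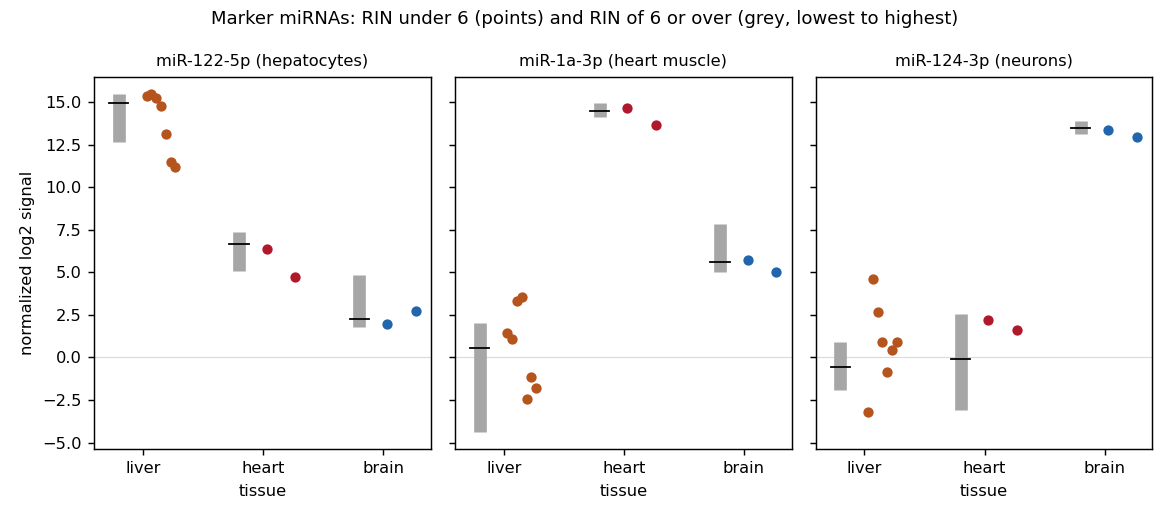
Normalized log2 signal (y axis) of miR-122-5p, miR-1a-3p and miR-124-3p in liver, heart and brain. Points are the 7 liver, 2 heart and 2 brain arrays with RIN under 6, liver points running from 48 h at 4 °C through 3 h to 96 h at RT; grey bars run from the lowest to the highest array with RIN of 6 or over and the black line is their median. Each marker's own tissue stands above the others, and the last 2 liver points for miR-122-5p (11.49 and 11.19) lie below the grey bar.

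Beyond the markers, 178 of the 815 tested miRNAs (21.8%) differed between the 3 tissues on the degraded arrays. A miRNA was called where a limma F-test over the 11 arrays gave a Benjamini-Hochberg adjusted p under 0.05 and the highest and lowest tissue means were at least 1 log2 unit apart. Brain was the highest tissue for 126 of them (15.5% of those tested), heart for 32 (3.93%) and liver for 20 (2.45%). The liver count was 11 without the brain array of 48 h and 66 with quantile normalization, and the heart count was 16 without the heart array of 48 h. The arrays of the highest tissue did not overlap the others for 164 of the 178, against 301 of all 815 (36.9%). Of the 11 arrays that set the pooled spread 7 were of liver, whose pieces covered the widest course of storage times. In the separate contrasts, liver differed from the mean of heart and brain for 185 miRNAs (22.7%), 33 higher and 152 lower (18.7%), and heart from brain for 126 (15.5%), 26 higher and 100 lower (12.3%). Liver differed from brain for 167 (20.5%) and from heart for 49 (6.01%). Without the heart array of 48 h or of 96 h the last count was 11 or 18.

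The calls followed the tissue of better RNA. On the arrays with RIN of 6 or over an F-test with the same thresholds called 550 miRNAs (67.5%). It compared the tissue means of these 34 arrays, with the spread taken from a fit to 45 arrays, the 11 degraded ones included. The highest tissue on the arrays with RIN of 6 or over was the same for 174 of the 178. All 32 heart calls and all 126 brain calls had the same highest tissue there, and 16 of the 20 liver calls did. The 4 exceptions, all liver calls, were miR-3058-3p, miR-3095-3p and miR-8093, highest in brain where RIN was 6 or over, and miR-1897-5p, highest there in heart. Seen the other way, with RIN of 6 or over 38 miRNAs (4.66% of those tested) were called highest in liver, 142 (17.4%) in heart and 370 (45.4%) in brain. Of these, 12, 32 and 125 were called highest in the same tissue on degraded arrays. Over all tested miRNAs the shares called highest there in liver, heart and brain were 2.45%, 3.93% and 15.5%.

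Detection gave another view of the same miRNAs. Of the brain calls, 69 of 126 were detected on no degraded liver or heart array, with 9 of 32 heart calls and 4 of 20 liver calls likewise confined by the scanner's flag to their own tissue. How many of all tested miRNAs were so confined was not counted. Detected on every degraded array of their own tissue were 120 of the brain calls, all 32 heart calls and 18 liver calls. Of all 815 tested miRNAs, 655 were detected on every degraded brain array, 556 on every heart array and 306 on every liver array.

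All 6 miRNAs of the liver list were called and highest in liver: miR-122-5p, its passenger strand miR-122-3p, miR-192-5p, miR-194-5p, miR-148a-3p and miR-802-5p. Of all tested miRNAs, 4.05% were called higher in liver than in the mean of heart and brain, and all 6 list members were. MiR-122-3p ranged from 2.72 to 8.71 in liver with a median of 7.71, and was detected on no heart or brain array. Measured tissue means were 6.60 in liver, -0.47 in heart and -1.07 in brain. Against the lowest detected signal of each array in place of its own, liver was at least 58.7-fold higher than heart and at least 64.6-fold higher than brain (limma F-test, adjusted p = 0.00146). The lowest and highest liver arrays of the passenger strand were those of miR-122-5p, 96 h and 3 h at RT.

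MiR-192-5p and miR-194-5p, processed from shared transcripts, ranged in liver from 7.57 to 12.05 (median 11.50) and from 5.96 to 10.68 (median 9.63). In heart miR-192-5p measured 5.36 and 4.14, and in brain 4.08 and 3.67. It did not overlap between liver and the other tissues, and liver was 6.09 ± 0.95 above their mean (SE; limma, adjusted p = 0.00067). MiR-148a-3p was the member whose arrays overlapped: liver ranged from 7.28 to 11.45 (median 10.79), and the liver pieces of 48 h and 96 h at RT (7.28 and 7.64) lay between the heart arrays of 48 h (7.99) and 96 h (6.82). Its liver minus heart difference was 2.35 with a 95% confidence interval from -0.23 to 4.93, while liver minus brain was 4.89 (2.32 to 7.47; limma, adjusted p = 0.0101). Its call was lost with slide as a random block and without either brain array.

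All 8 miRNAs of the heart list were called and highest in heart, and all 8 were called higher in heart than in brain, against 3.19% of all tested miRNAs. None of the 8 overlapped between heart and the other tissues. MiR-133b-3p, a muscle miRNA that accompanies miR-1, measured 14.11 and 13.07 in heart, 5.21 and 5.02 in brain and 2.08 to 3.04 in liver (median 2.40), a heart minus brain difference of 8.48 ± 0.60 (SE; limma, adjusted p = 4.62e-06). The 3 strands from myosin genes were detected on both heart arrays and on no other degraded array. MiR-499-5p had a heart mean of 9.46, with 8.91 on the array of 96 h, against 1.68 and 1.08 in brain and at most 0.38 in liver (median -0.48). With the floor in place of these undetected values, heart was at least 374-fold above liver and at least 270-fold above brain (F-test, adjusted p = 6.99e-07; measured means -0.37 in liver and 1.38 in brain).

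Its relatives from the cardiac myosin genes were dimmer. MiR-208a-3p, from the gene of the adult cardiac myosin, measured 7.94 and 6.81 in heart, at least 88.6-fold above liver and at least 111-fold above brain (F-test, adjusted p = 6.99e-07). MiR-208b-3p, which shares its seed and comes from the slow and fetal myosin gene, measured 3.65 and 2.75, at least 4.90-fold above liver and 6.15-fold above brain (adjusted p = 2.65e-05). MiR-378a-3p, from an intron of the mitochondrial regulator Ppargc1b, was the member with the smallest gap: 9.94 and 8.58 in heart, 4.97 and 4.96 in brain and 4.23 to 6.43 in liver (median 5.66). Heart stood above both other tissues without overlap, by 3.82 on the log2 scale to the nearer mean (F-test, adjusted p = 0.00254). Without the heart array of 48 h it was not called.

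Of the 17 miRNAs of the brain list, 16 were called and highest in brain, against 15.5% of all tested miRNAs. The exception was miR-212-3p (F-test, adjusted p = 0.281), made from the same transcript as miR-132 and sharing its seed. It measured 7.83 and 7.43 in brain, 5.62 and 4.09 in heart and 5.09 to 9.38 in liver (median 7.40), so that liver and brain overlapped. MiR-132-3p did not: 10.98 and 10.31 in brain, 4.56 and 3.22 in heart and -0.16 to 3.40 in liver (median 1.48; F-test, adjusted p = 3.11e-05).

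The strands of the neural miR-9 behaved alike, miR-9-5p with 11.46 and 9.84 in brain against 1.66 and 0.41 in heart and -1.73 to 2.22 in liver (median -0.28), and miR-9-3p with 11.65 and 11.09 in brain. Heart minus brain was -9.61 ± 1.23 for miR-9-5p and -9.92 ± 1.44 for miR-9-3p (SE; limma, adjusted p = 0.000177 and 0.000448). MiR-219a-2-3p, tied to myelinating oligodendrocytes, measured 6.65 and 6.63 in brain and was detected on no other degraded array, which put brain at least 53.2-fold above liver and 60.6-fold above heart (F-test, adjusted p = 1.24e-06). Not all brain miRNAs were dark in liver. MiR-137-3p was detected on 6 of 7 liver arrays at 0.90 to 4.88 (median 4.02), miR-219a-5p on 6 at 0.91 to 6.13 (median 4.79) and miR-338-3p on 5 at 0.98 to 5.68 (median 4.92), each highest on an array of 3 h or 6 h at RT and each still below both brain arrays. The calls of miR-219a-5p and miR-338-3p were lost without either brain array.

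Share of signal gave another measure of the lists. The summed scanner signal of the heart list made up 22.5% and 17.1% of the total on the heart arrays and at most 0.0599% on a degraded brain or liver array. The brain list made up 13.6% and 11.9% on the brain arrays, with at most 0.153% in liver and 0.0961% in heart. The liver list made up 1.27% to 11.5% on the liver arrays (median 8.93%), its lowest share at 96 h at RT, against at most 0.163% elsewhere. Because a share is of bulk RNA, fewer cells of a type and less RNA per cell cannot be told apart.

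Outside the lists the miRNAs with the widest gaps were mostly of brain. MiR-384-5p measured 7.01 and 6.38 in brain and was detected in no other degraded array, at least 55.2-fold above liver and 63.0-fold above heart (F-test, adjusted p = 8.86e-06). MiR-129-2-3p, from the hairpin of the listed miR-129-5p, measured 10.07 and 9.67 in brain against 1.53 and 1.14 in heart and 1.46 to 2.39 in liver (median 1.74). The remaining 4 were miR-344b-3p, miR-434-3p, miR-410-3p and miR-127-3p. MiR-434-3p measured 9.87 and 9.34 in brain, at least 380-fold above liver and 239-fold above heart (adjusted p = 6.06e-06).

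Their places in the genome were a property the test had not used. Of the 126 brain calls, 14 lay in chr12:109585818-109595387, where 18 tested miRNAs lie, and 33 lay in chr12:109709065-109747949, where 41 do. Of all tested miRNAs, 15.5% were called highest in brain. Several of these calls were both strands of the same hairpin. The first stretch holds miR-127, miR-434 and miR-136 and the second miR-379, miR-376a, miR-381 and miR-410. In liver, the 4 tested strands of the miR-192 and miR-194 hairpins at chr19:6264658-6264921 were all called, against 2.45% of all tested miRNAs called highest in liver. Of these strands, miR-192-5p and miR-194-5p were already in the liver list. The largest group of brain calls with the same seed (ACAUUCA) was miR-181a-5p, miR-181b-5p, miR-181c-5p and miR-181d-5p. Their brain means were 8.53, 6.80, 6.39 and 5.62 against 5.52, 4.18, 5.18 and 4.24 in heart. Other brain calls shared a seed in pairs: miR-344d-3p with miR-410-3p, miR-379-3p with miR-411-3p and miR-540-3p with miR-6915-5p. Stretches were joined where called miRNAs lay within 50000 bases of each other, and this grouping was made after the calls were known. Each stretch begins and ends at a called miRNA, so the way it was drawn raises its called share.

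The heart miRNAs outside the list again came from named families. MiR-378c and miR-378a-5p, relatives of the listed miR-378a-3p, measured 8.33 and 7.44 and 7.26 and 6.30 in heart, and miR-378d measured 10.29 and 8.93. In liver miR-378c ranged from 1.03 to 3.91 (median 3.38) and in brain it measured 2.31 and 2.91 (F-test, adjusted p = 0.00201). The passenger strands miR-486a-3p and miR-486b-3p were detected on both heart arrays and no other, at least 16.5-fold and 10.5-fold above liver (adjusted p = 5.44e-05 and 0.00163). MiR-486a is abundant in red cells and in muscle, and the blood cell list below bears on it. The sixth was miR-7002-5p, at 10.84 and 10.98 in heart against 5.39 to 9.51 in liver (median 7.16) and 6.86 and 7.58 in brain (adjusted p = 0.0202). It was not called with quantile normalization, with 75th percentile scaling, with no scaling or with normexp background correction.

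The liver miRNAs outside the list were of another kind. They were miR-8093, miR-6998-5p, miR-195a-3p, miR-6352, miR-3095-3p and miR-760-3p, of which 4 have numbers of 3000 or higher, that is, entered the miRNA registry late. MiR-8093, within the span of Fpgs (chr2:32687706-32687726, minus strand), measured 4.48 to 6.62 in liver (median 5.86), 1.72 and 1.72 in heart and 2.06 and 3.03 in brain. Liver was 3.51 ± 0.51 above the mean of the others (SE; limma, adjusted p = 0.000404). MiR-195a-3p, a passenger strand, measured 3.31 to 5.33 in liver (median 3.82), lowest in the piece kept at 4 °C, 1.69 and 1.71 in heart and 0.92 and 1.1 in brain (96 h and 48 h). MiR-760-3p (F-test, adjusted p = 0.044) lost its call when any of 8 of the 11 arrays was left out, namely either brain or heart array or the liver array of 48 h at 4 °C or of 6, 12, 24 or 48 h at RT.

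**Figure D2:**
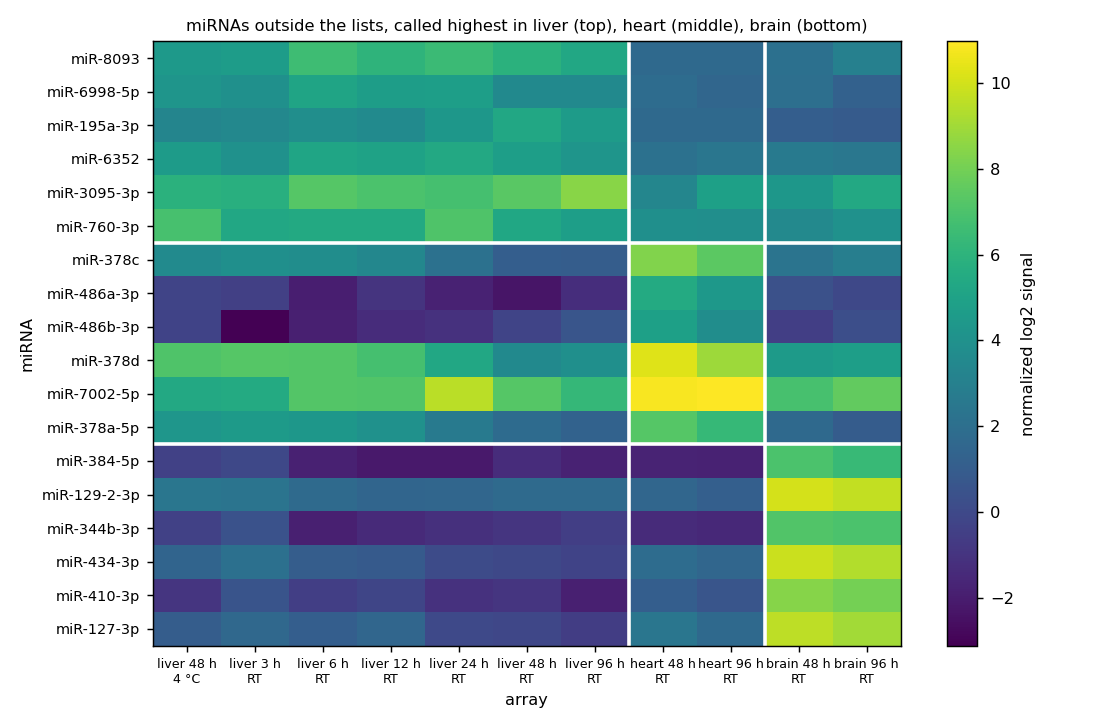
Normalized log2 signal (colour) of 18 miRNAs outside the lists (rows), 6 called highest in liver, 6 in heart and 6 in brain, on the 11 arrays with RIN under 6 (columns, by tissue and storage). The brain block runs from 6.38 to 10.07 on its own arrays, and the liver block from 3.31 to 8.50, with smaller gaps to the other tissues.

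Lists of other cells present in the organs were tested beside these. Of 7 blood cell miRNAs 2 were called (21.8% of all tested miRNAs were), miR-486a-5p highest in heart and miR-150-5p with means in brain and heart only 0.14 apart. The red cell miRNA miR-451a measured 14.18 and 12.67 in heart, 9.11 and 9.09 in brain and 6.04 to 10.93 in liver (median 9.76; F-test, adjusted p = 0.0571). Of 6 vessel and stroma miRNAs 1 was called against the same 21.8%, the smooth muscle miRNA miR-145a-5p, at 6.70 and 5.68 in heart, 4.13 and 3.29 in brain and 0.98 to 3.70 in liver (median 2.21; adjusted p = 0.00254). The blood cell list made up 8.67% (48 h) and 4.81% (96 h) of the signal on the degraded heart arrays, 0.317% and 0.350% in brain and 0.0428% to 0.684% in liver (median 0.458%). On heart arrays with RIN of 6 or over it made up 1.81% to 11.8%. The part of blood in the heart values of miR-486a strands was not tested.

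The 19 broadly expressed miRNAs gave no call over the 11 arrays, against 21.8% of all tested miRNAs. Their liver minus heart and brain differences had a median of -1.73, against -0.67 over all tested miRNAs, and 1 of the 19, let-7i-5p (-2.86 ± 0.87, SE; limma, adjusted p = 0.0348), was called lower in liver. MiR-191-5p was detected on no degraded array. Let-7a-5p ranged in liver from 6.04 to 11.81 (median 10.92), against 12.05 and 10.83 in heart and 12.21 and 11.08 in brain (F-test, adjusted p = 0.467). Its earliest liver pieces lay among the heart and brain values, and the pieces of 24, 48 and 96 h at RT lay below them, at 9.37, 7.73 and 6.04.

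The tissues were also compared at the storage times they share. Over the 6 arrays of 48 h and 96 h at RT, 2 of each tissue, 514 of 815 miRNAs (63.1%) differed between tissues, and 588 (72.1%) with storage time as a block. Liver was called lower than the mean of heart and brain for 322 (39.5%) and higher for 176 (21.6%), with 340 (41.7%) and 195 (23.9%) under the block. All 19 broadly expressed miRNAs were called there, and all 19 were lower in liver than in the mean of heart and brain. These counts include miR-191-5p, which was detected on no degraded array. Their median difference was -4.50, against -0.53 over all tested miRNAs, and under the 5 other scalings or background treatments it lay between -4.50 and -3.43 with all 19 lower in liver. Let-7a-5p had means of 6.89 in liver, 11.44 in heart and 11.64 in brain (limma F-test, adjusted p = 0.000374). All 7 blood cell and all 6 vessel and stroma miRNAs were called lower in liver too, with median differences of -3.84 and -4.02.

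The lists of each tissue kept their direction at the shared times, with 6 of 6 liver, 8 of 8 heart and 17 of 17 brain miRNAs called and highest in their own tissue. The liver list stayed 3.88 higher in liver at its median, and 1.42 (normexp) to 5.13 (quantile normalization) higher under the other treatments, while the broadly expressed list was 4.50 lower. RIN was not equal at these times: it was 2.4 and 2.3 for the liver pieces, 4.6 and 2.2 for those of heart, and brain had 5.5 and 3.3. The pieces of 96 h from liver (RIN 2.3) and heart (RIN 2.2) come closest to each other, with 1 array a tissue and no test. Between them the broadly expressed list had a median of 5.24 in liver and 9.55 in heart, and all 19 were lower in liver by over 1 log2 unit (median difference -4.06). Of the 19, 17 were detected in liver and 18 in heart. The liver list had a median of 6.76 in liver and 3.95 in heart, and the 8 heart miRNAs were all lower in liver by over 1.

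**Figure D3:**
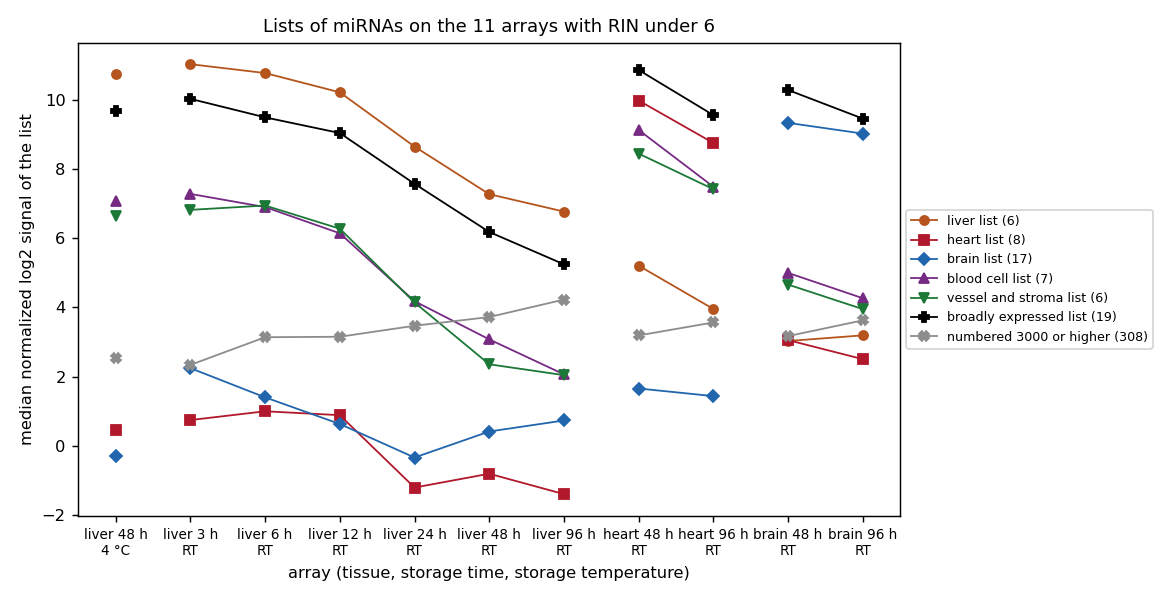
Median normalized log2 signal (y axis) of 6 lists of miRNAs and of the 308 tested miRNAs numbered 3000 or higher on each of the 11 arrays with RIN under 6 (x axis); lines join the RT pieces of a tissue in order of time. In liver the broadly expressed list runs from 10.02 at 3 h to 5.24 at 96 h and the liver list from 11.02 to 6.76, while the late-numbered miRNAs run from 2.34 to 4.22; heart and brain move less between 48 h and 96 h.

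The early and late parts of the miRNA registry were then set side by side. On all 11 degraded arrays 292 miRNAs were detected, and of the 270 of these that were not called 130 were numbered under 1000 and 120 were numbered 3000 or higher. Among miRNAs numbered under 1000, 150 of 459 were called (32.7%), and among those numbered 3000 or higher 22 of 308 (7.14%). The median distance between the highest and lowest tissue mean was 2.52 log2 units in the first class and 1.24 in the second, and on arrays with RIN of 6 or over it was 2.41 and 1.28. By the median of its members the late-numbered class was also higher on degraded arrays. Its median change from RIN of 6 or over to RIN under 6 was 2.03 in liver, 1.59 in heart and 1.30 in brain. It was above 0 in all 3 tissues under the 5 other scalings or background treatments, down to 0.12 with normexp. The share of the summed scanner signal held by the class went the other way. Its median over arrays was 80.3% with RIN of 6 or over and 74.7% under 6 in liver. In heart these medians were 62.2% and 38.9%, and in brain 58.5% and 46.8%. Called higher on degraded arrays were 210 of the 308 in liver (42.7% of all tested miRNAs were), 165 in heart (32.5%) and 124 in brain (22.5%). The filter, detection on at least 5 of 45 arrays, can be met by the 11 degraded arrays alone. At most 208 miRNAs of this class were detected on any array with RIN of 6 or over. The filter thus favours miRNAs that are high on degraded arrays, and its part in these changes was not tested. For miRNAs numbered under 1000 the median change was -0.63, -0.44 and -0.66 and turned to 0.32, 0.60 and 0.16 with no scaling between arrays. Of these 459, 103 were called lower in liver (14.2% of all tested), 56 in heart (8.83%) and 35 in brain (5.4%), and 106, 74 and 35 were called higher.

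In sequence these groups differed as well. Of the 120 late-numbered miRNAs detected on all 11 arrays and not called, 102 had a sequence, with a median GC content of 63.6% and a median G content of 45.8%. The 130 such miRNAs numbered under 1000 had a median GC content of 47.6% over 111 sequences. Brain calls had a median of 45.5% over 110 sequences and all tested miRNAs one of 54.5%. For heart calls 59.4% had a sequence, too few for the comparison.

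**Figure D4:**
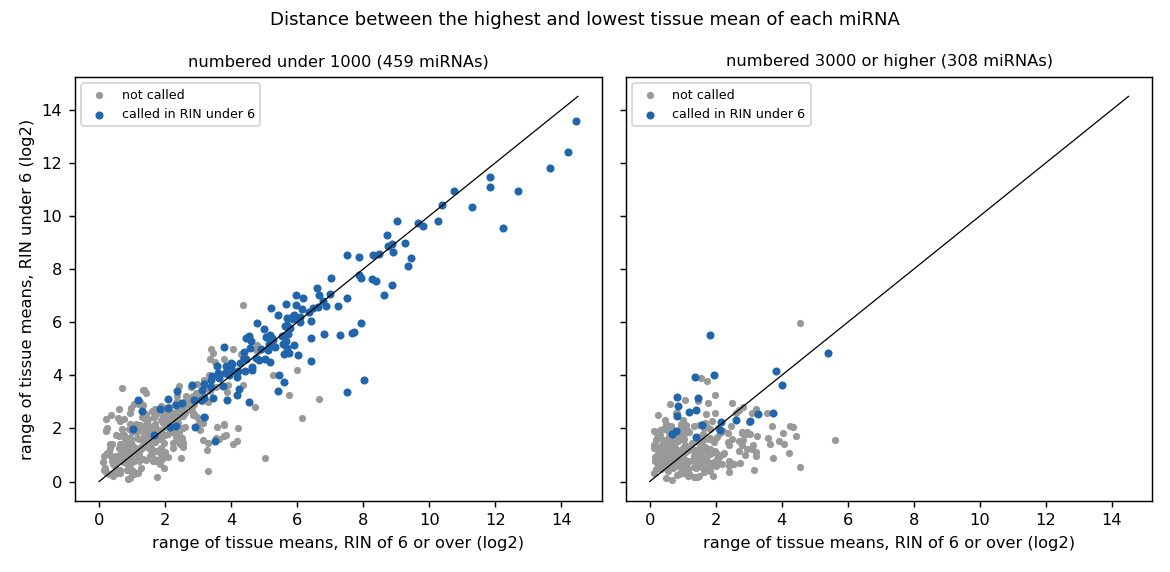
Distance in log2 units between the highest and lowest tissue mean of each tested miRNA on arrays with RIN of 6 or over (x axis) and on arrays with RIN under 6 (y axis), for 459 miRNAs numbered under 1000 (left) and 308 numbered 3000 or higher (right). Blue points were called among the degraded arrays, the line marks equal distances; the left panel spreads along the line to 13.6 and the right panel stays mostly below 4.

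A missed call does not show that tissues were alike, so likeness was asked of the confidence intervals. No miRNA had all 3 pairwise 95% intervals within 1 log2 unit, and 19 of the 292 had them within 2. The heart minus brain interval rests on 2 arrays against 2 and is the widest of the 3. Intervals this wide may put the rule of 1 log2 unit out of reach of any miRNA. An empty count therefore does not show that no miRNA was alike. The 6 whose widest interval bound was smallest, picked after their values were seen, were miR-191-3p, miR-7224-3p, miR-3620-3p, miR-7222-3p, miR-6370 and miR-320-3p. MiR-191-3p measured 1.96 to 2.69 in liver (median 2.35), 1.95 and 2.37 in heart and 2.35 and 2.19 in brain. Its liver minus heart interval ran from -0.70 to 1.15 and its liver minus brain interval from -0.81 to 1.04. MiR-320-3p, made without the Drosha complex, measured 4.68 to 5.52 in liver (median 5.20), 4.42 and 4.22 in heart and 4.22 and 4.61 in brain, so that liver lay slightly above the others. None of the 6 was called at the shared times of 48 h and 96 h, and with quantile normalization miR-3620-3p, miR-6370 and miR-320-3p were.

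Whole profiles divided the classes by distance to tissue means, but not by the nearest array. Over all tested miRNAs the nearest of the other degraded arrays was of the same tissue for 11 of 11, and this also held within miRNAs numbered under 1000 and within those numbered 3000 or higher. But for the liver piece kept at 4 °C, arrays of a tissue share an animal and a slide. The complete linkage tree over all tested miRNAs, cut into 3 branches, did not part heart from liver. Both heart arrays fell in a branch with the liver pieces of 48 h at 4 °C and of 3, 6, 12 and 24 h at RT. The brain arrays formed another, and the liver pieces of 48 h and 96 h at RT the last. Over miRNAs numbered under 1000 the heart arrays shared a branch with the same liver pieces except that of 24 h. The mean distance over all tested miRNAs was 54.4 between liver arrays (21 pairs), 66.0 between liver and heart, 75.5 between heart and brain and 87.6 between liver and brain. When each degraded array was instead set against the 3 tissue means of the arrays with RIN of 6 or over, a comparison chosen after the data were seen, 11 of 11 lay nearest to their own tissue over miRNAs numbered under 1000. Over miRNAs numbered 3000 or higher 2 of 11 did, and these were the brain arrays, because all 11 lay nearest to the brain mean. The liver piece of 96 h at RT, for example, lay 69.7 from the liver mean and 84.1 from the heart mean in the first class, and 70.0 and 60.7 in the second.

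**Figure D5:**
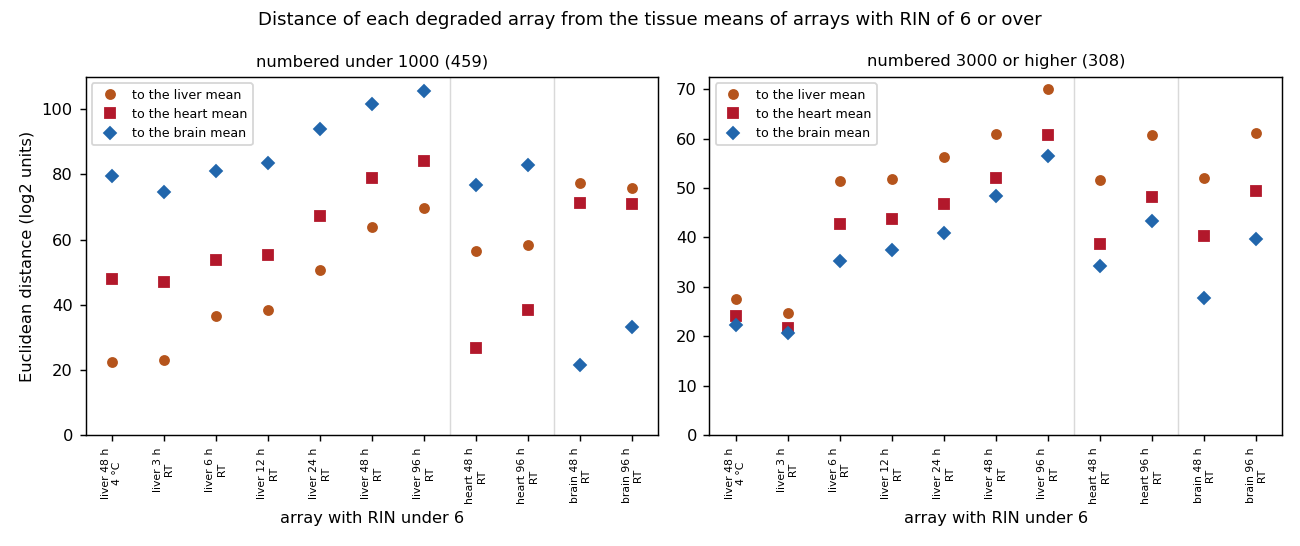
Euclidean distance (y axis, log2 units) of each array with RIN under 6 (x axis) from the mean profile of liver, heart and brain arrays with RIN of 6 or over, over 459 miRNAs numbered under 1000 (left) and 308 numbered 3000 or higher (right). In the left panel each array lies nearest to its own tissue, the liver arrays at 22.5 to 69.7; in the right panel the brain mean is nearest for all 11, at 20.7 to 56.4.

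The last comparison asked whether tissue differences on degraded arrays were other than those with better RNA. The interaction of tissue and RIN class passed for 36 of 815 miRNAs (4.42%), with 135 (16.6%) at an unadjusted p under 0.05. The range of tissue means was narrower on degraded arrays for 24 (2.94%) and wider for 12 (1.47%). This split turned to 12 narrower and 95 wider when undetected values were set to the lowest detected value, and to 9 narrower of 29 with no scaling. Of the listed tissue miRNAs only miR-129-5p was among the 36 (change -1.98; adjusted p = 0.045), so that the interaction gave no call for the other members of the liver, heart and brain lists.

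Narrowings were ranked among calls detected on all arrays with RIN of 6 or over of at least 1 tissue. The 4 largest were of miRNAs highest in brain where RIN was 6 or over. MiR-330-3p measured 4.94 and 4.55 in degraded brain, 0.95 and 0.90 in heart and -0.01 to 1.81 in liver (median 0.98), where liver and heart arrays with RIN of 6 or over had medians of -2.18 and -1.60 with no array detected. Its range changed by -4.19 (limma interaction F-test, adjusted p = 0.00561) and its signal was detected on 1 of 7 liver and 0 of 2 heart arrays. With undetected values floored at the lowest detected value the change was -0.09 (adjusted p = 0.999), and with no scaling -1.10 (adjusted p = 0.26). MiR-672-5p was no longer highest in brain, with 3.57 and 3.05 in degraded brain, 3.66 and 4.76 in heart and 0.41 to 6.32 in liver (median 3.27), a change of -4.11 (adjusted p = 0.00561) and of -1.997 with undetected values floored, after being detected on all 14 brain arrays and no liver array with RIN of 6 or over. The others were miR-674-5p (-4.12; adjusted p = 7.47e-05) and miR-8108 (-2.71; adjusted p = 0.014), and miR-674-5p widened with no scaling or with undetected values floored, as did miR-8108 with the latter.

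Widenings were ranked among calls detected on all degraded arrays of at least 1 tissue. The 4 largest were of liver calls: miR-8093, miR-3058-3p, miR-3095-3p and miR-195a-3p. MiR-3058-3p ranged from 4.23 to 6.02 in degraded liver (median 5.30) against 1.83 and 2.50 in heart and 3.83 and 3.94 in brain, and its range widened by 2.35 (adjusted p = 0.00561). On arrays with RIN of 6 or over its medians were 3.80 in liver, 3.54 in heart and 4.61 in brain. Within the RT slides alone, where fewer arrays entered, 10 miRNAs passed the interaction test, 1 of them with a wider range. Of the named narrowings and widenings 5 lost their call there, miR-3058-3p, miR-3095-3p and miR-195a-3p among them, and 3 kept it.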

How the data were processed

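Total RNA was labelled with cyanine 3 and hybridised to Agilent mouse miRNA arrays of 1881 miRNAs. The authors extracted spot intensity values with Agilent Feature Extraction; each deposited scanner file holds intensity values and a detection flag per miRNA. The deposited table of log2 values held the authors' variance stabilising normalization (VSN) of all 46 arrays; each of its columns was checked to be a VSN transform of the scanner's total signal. RIN and storage times are those of the labels; the study's text gives another RIN, also under 6, for the liver piece of 48 h at 4 °C, and another hour for the pieces labelled 12 h. Arrays have no read depth, so precision rests on how many arrays there are.

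Tested were 815 miRNAs detected on at least 5 of 45 arrays. R 4.3.3 and limma 3.58.1 fitted 3 tissue means to the 11 arrays, with liver, heart and brain contrasts, and a tissue by RIN class interaction to 45. Adjusted p-values are Benjamini-Hochberg over all 815. The fits were tested on simulated data. A lower bound of fold set undetected values to the lowest detected value of their array.

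The arrays, lists and tests were chosen with earlier results of these data known. Named were list members and up to 6 miRNAs per tissue outside the lists with the largest gap to the next tissue. The latter were called, detected on all arrays of that tissue and without overlap. Also named were the 4 largest narrowings and 4 largest widenings that met the detection rules above, and 6 picked after their values were seen. The rule for shared miRNAs named none. Alternatives were other scalings, normexp (offset 50, on median signals, since the files gave no mean signal), other detection filters, slide as a random block, RIN as a covariate, shared storage times, an exact Wilcoxon-Mann-Whitney test and leaving out each array.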

Additional observations from a re-analysis of the deposited data

Results flagged for a closer look

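In the group of 7 liver arrays, 3 of 105 values examined had 1 array far from the rest by Dixon's test, which chance alone does for about 1 group in 20. The brain miRNA miR-383-5p measured -2.65 on the liver array of 48 h at 4 °C, where the next lowest liver array measured 0.05, and was detected on none of the 7. MiR-6370 measured 5.71 on the liver array of 6 h at RT, with the next highest at 5.04. MiRNAs numbered from 1000 and below 3000 made up 15.5% of the signal of the liver array of 96 h at RT, where the next highest liver array had 6.24%.

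Tissue differences differed between degraded arrays and those with RIN of 6 or over for 36 miRNAs by the interaction test. The range of tissue means changed by -4.19 for miR-330-3p, -4.12 for miR-674-5p, -4.11 for miR-672-5p and -2.71 for miR-8108, and by 2.54 for miR-8093, 2.35 for miR-3058-3p, 1.98 for miR-3095-3p and 1.89 for miR-195a-3p (limma, adjusted p from 7.47e-05 to 0.0233). With undetected values floored the change of miR-330-3p was -0.09 and that of miR-672-5p -1.997.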

How the results depend on the processing

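The 178 miRNAs that differed between tissues became 82 with normexp, 514 over the arrays of 48 h and 96 h and 588 with storage time as a block, and 125 to 218 when 1 array was left out. Those highest in liver (20) were 11 with slide as a random block or without the brain array of 48 h, 12 with normexp or without the brain array of 96 h, 13 without the heart array of 96 h, 30 without the liver array of 96 h, 41 with 75th percentile scaling and 66 with quantile normalization; those highest in heart (32) were 16 without the heart array of 48 h, 17 with normexp and 59 with no scaling, and those highest in brain (126) were 53 with normexp. Liver against heart and brain (185) gave 53 with normexp, 498 and 535 at the shared times, 87 by the exact Wilcoxon-Mann-Whitney test and 110 to 216 without 1 array. Heart against brain (126) gave 62, 264 and 321, and 85 to 141 without 1 array. Liver against brain (167) gave 59, 467 and 545, and 105 to 192. Liver against heart (49) gave 20, 353 and 429, 94 with no scaling, 31 with slide as a random block and 11 to 63 without 1 array. The interaction (36) gave 10 within the RT slides, 14 with the heart array of 0 h at 4 °C, 65 with slide as a random block, 80 with quantile normalization, 107 with undetected values floored, 160 with normexp and 16 to 58 without 1 array. Shared miRNAs (0) became 57 with normexp and 19 with intervals of 2 log2 units, an alternative chosen after the data were seen. The causes were not tested. Counts moved by over 1.5 times for liver against heart and brain without the 48 h array of brain (110) or heart (115), for liver against heart without the heart array of 48 h (11) or 96 h (18), for liver against brain without the brain array of 48 h (105) or 96 h (110), and for the interaction without the brain array of 48 h (22) or 96 h (16), the heart array of 48 h (21) or the liver array of 48 h at 4 °C (57), 3 h (58) or 24 h at RT (23). Of the liver against heart and brain calls 17.8% were higher in liver, with 42.2% under quantile normalization, 30.4% under 75th percentile scaling and 30.2% under normexp; the median difference over all tested miRNAs was -0.67, and -0.25, -0.20 and -0.01 there.

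Liver, heart and brain lists kept 6, 8 and 16 calls in their own tissue under 75th percentile, quantile and no scaling and with values floored; normexp kept 4, 7 and 13, RIN as a covariate 6, 8 and 15, slide as a random block 5, 8 and 16. MiR-148a-3p lost its call with the slide block and without either brain array, miR-219a-5p and miR-338-3p without either brain array, and miR-378a-3p without the heart array of 48 h. Over all named miRNAs and alternatives, 2014 values kept their direction and side of the threshold, 75 lost and 77 gained a call. The highest tissue of miR-150-5p turned from brain to heart in 5 (range 3.44 with RIN as a covariate, 0.94 with normexp, 4.26 with quantile normalization, 3.93 without the brain array of 48 h and 4.53 without the heart array of 96 h, in a range of 3.75 to 4.53 over all arrays left out). The change of miR-674-5p turned to 0.40 with values floored and 0.49 with no scaling, and that of miR-8108 to 0.21 with values floored; without 1 array they stayed at -4.58 to -3.66 and -3.09 to -2.33. The nearest array was of the same tissue for every array under each scaling, filter and distance, and for 10 of 10 without 1 liver array. All tests rest on 2 heart and 2 brain arrays, each tissue on 1 slide, so tissue and slide cannot be told apart.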
